A study of Mus musculus with 8 samples.

Results

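The genes of the muscle acetylcholine receptor and of its clustering at the endplate were followed in mouse myoblasts with Septin9 transcript lowered by siRNA. Septin9 is a filament-forming cytoskeletal protein. The 9 genes were taken by symbol from the 42391 gene entries of the count table. Chrna1, Chrnb1, Chrnd, Chrng and Chrne encode receptor subunits, and Musk, Lrp4, Dok7 and Rapsn encode the clustering machinery. RNA was sequenced from 8 samples of wild-type mouse cells, 2 replicates for each combination of cell source and siRNA. C2C12 cells, a clonal mouse myoblast line, were transfected with 50 nM of a Septin9 siRNA (Septin9-deficient) or a non-targeting siRNA (control) and lysed after 60 h, the last 12 h of them in low-serum differentiation medium. Primary myoblasts, grown out from hindlimb muscle of young mice and pre-plated to remove fibroblasts, received the same siRNAs in growth medium and were lysed after 48 h while proliferating. No group contained nerve, every control had itself been transfected, and cell source, medium, differentiation stage and time after transfection changed together between the cell types. The number of mice behind the primary cultures was not given in the sources used here. Between 20898611 and 27223414 reads were counted on genes per sample.

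The muscle acetylcholine receptor is a pentamer of alpha, beta and delta subunits with either gamma, in fetal and uninnervated muscle, or epsilon, in adult innervated muscle. Nerve-derived agrin binds Lrp4, which activates the kinase MuSK together with the adaptor Dok7, and rapsyn then anchors receptors under the nerve terminal. In cultured muscle cells, subunit genes are switched on with differentiation by myogenic factors such as MyoD and myogenin, which bind E-boxes, whereas the N-box, bound by ETS factors, is known for synapse-specific transcription of Chrne.

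The sequence just before the start site is shown for Chrna1, the most abundant subunit transcript, and for Chrng and Chrne, the fetal and the adult subunit, since E-boxes and the N-box are the elements known to separate their control. Capitals mark E-boxes (CANNTG) and, in Chrne, also the N-box (CCGGAA), searched on both strands, and each run is written 5′ to 3′ along the gene, without bases of annotated exons, from RefSeq on GRCm38.p6. The runs are Chrng at chr1:87205561-87205809 on the plus strand, Chrna1 at chr2:73580339-73580588 on the minus strand and Chrne at chr11:70619217-70619444 on the minus strand.
Chrng: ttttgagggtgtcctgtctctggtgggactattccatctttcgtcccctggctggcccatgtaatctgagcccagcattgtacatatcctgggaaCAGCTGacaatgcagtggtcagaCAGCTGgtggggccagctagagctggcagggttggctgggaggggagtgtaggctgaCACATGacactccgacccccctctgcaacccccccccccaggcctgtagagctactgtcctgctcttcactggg
Chrna1: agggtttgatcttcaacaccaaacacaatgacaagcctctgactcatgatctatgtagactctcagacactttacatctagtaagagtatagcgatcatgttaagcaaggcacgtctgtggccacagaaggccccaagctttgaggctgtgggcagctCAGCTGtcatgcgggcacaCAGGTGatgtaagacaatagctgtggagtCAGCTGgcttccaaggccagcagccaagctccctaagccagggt
Chrne: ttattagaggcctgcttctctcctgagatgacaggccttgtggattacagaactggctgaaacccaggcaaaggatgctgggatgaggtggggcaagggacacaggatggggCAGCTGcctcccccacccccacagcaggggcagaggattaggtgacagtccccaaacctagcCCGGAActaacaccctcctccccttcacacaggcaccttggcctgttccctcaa
The Chrng run held 3 E-boxes, which began 155, 132 and 75 bases before the start site, and the first and second of these read CAGCTG. In Chrna1 the 3 E-boxes began 92, 73 and 44 bases before the start, with CAGCTG at the outer positions and CAGGTG between them. Chrne held a single E-box, CAGCTG, and an N-box, which began 138 and 76 bases before the end of its 250-base window. That window ended at chr11:70619195, inside the annotated gene. Its last 22 bases were exon and are not in the run shown. Promoter windows of 250 bases were at hand for 6 of the 9 genes (also for Chrnb1, Musk and Dok7). Each of the 6 genes held an E-box in a window, but a second window of Dok7 held none. Of the 32851 mouse promoter windows, 66.2% held an E-box. The letters CAGCTG, which are also an E-box, were in the windows of Chrna1, Chrng, Chrne and Musk and in 13.0% of all windows, and the N-box was in that of Chrne and in 12.0% of all. These are matches of letters and no binding was measured.

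On GRCm38.p6, Chrnd (chr1:87190597-87200070) and Chrng (chr1:87205811-87211835) are neighbours on the plus strand of chromosome 1. Chrnb1 (chr11:69784036-69795966) and Chrne (chr11:70614883-70619213) lie on the minus strand of chromosome 11. Chromosome 2 holds Chrna1 (chr2:73563281-73580338, minus strand), Rapsn (chr2:91035472-91045729) and Lrp4 (chr2:91457456-91513901), while Musk (chr4:58285729-58377848) and Dok7 (chr5:35056571-35087839) stand alone. Chrna1 shares part of its span with Gm30940, to which 2929 reads were assigned in all 8 samples together.

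Septin9 itself fell in every pair. In C2C12 cells it went from 409 to 147 CPM (read counts relative to library size, scaled by TMM) in replicate 1 and from 435 to 185 CPM in replicate 2, and in primary myoblasts from 376 to 208 and from 473 to 159 CPM. The log2 fold change was -1.36 (SE 0.076) in C2C12 cells and -1.21 (SE 0.15) in primary myoblasts, with adjusted p = 5.11e-09 and 0.000134 in the quasi-likelihood test of edgeR, adjusted after Benjamini-Hochberg.

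Markers of the labelled cells were present, and the summed CPM of 6 myogenic markers (Myod1, Myf5, Pax7, Des, Cdh15 and Myog) ran from 726 to 1292 in C2C12 samples and from 2809 to 5348 in primary myoblasts. The summed CPM of 12 differentiation markers was 107 to 230 in the differentiating C2C12 cells and 4367 to 21450 in the primary myoblasts labelled as proliferating. Summed fibroblast markers stood at 12.97 and 11.02 CPM in replicate 1 of the primary myoblasts, control and Septin9-deficient, but at 315 and 459 CPM in replicate 2, and at 171 to 211 CPM in C2C12 samples. Of the 6 fibroblast markers, Lum was at 0 counts in replicate 1 of the primary myoblasts and none was at 0 in replicate 2. Of 6 neuronal markers, 3 to 5 were at 0 counts in a sample, Chat in all 8, while Nefl, which encodes a neurofilament, stood at 19.9 to 30.4 CPM in C2C12 samples and 4.34 to 8.92 CPM in primary myoblasts and made up nearly all of the list's sum. In such bulk samples, fewer cells of a type and less RNA per cell cannot be told apart.

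To see which receptor these cells were equipped to build, levels were first compared per transcript length, as CPM divided by the length of the gene's merged exons in kilobases (RPKM). The lengths are those of GENCODE, which may differ from the exons on which reads were counted. Chrng spans chr1:87204657-87212694 in GENCODE and chr1:87205811-87211835 in RefSeq. Such differences would change shares and orders between genes, but not comparisons of the same gene between samples. Chrna1, the ligand-binding subunit, reached 51.0 and 97.2 RPKM in control C2C12 cells and 456 and 248 RPKM in control primary myoblasts (replicates 1 and 2). Chrnb1, the beta subunit, reached 30.1 and 38.3 RPKM in C2C12 cells and 71.2 and 54.6 RPKM in primary myoblasts. Chrnd, the delta subunit, stood at 3.46 and 9.68 RPKM in C2C12 cells against 65.5 and 47.4 RPKM in primary myoblasts. For each of these genes, both primary myoblast controls lay above both C2C12 controls.

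Chrng, the fetal gamma subunit, showed the widest gap, with 1.15 and 4.59 RPKM in control C2C12 cells and 99.8 and 41.3 RPKM in control primary myoblasts. Chrne, the adult epsilon subunit, had 0 and 3 reads in the control C2C12 replicates and 1 and 16 reads in the control primary myoblasts, which is at most 0.352 RPKM. In the Septin9-deficient samples Chrne had 0 and 2 reads in C2C12 cells and 0 and 19 reads in primary myoblasts. The epsilon transcript thus had at most 19 reads in a sample, and the samples of the control and Septin9-deficient groups overlapped.

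Of the reads assigned to the gamma or the epsilon gene, epsilon held 0 of 105 in control C2C12 replicate 1. In its Septin9-deficient partner it held 0 of 167. The exact Clopper-Pearson 95% intervals of these shares reached 3.45% and 2.18%. In C2C12 replicate 2 the share was 0.575% in the control (exact Clopper-Pearson 95% interval 0.119 to 1.67) and 0.382% after Septin9 siRNA (0.0463 to 1.37). In primary myoblast replicate 1 it was 0.0103% in the control (0.000262 to 0.0576) and 0 of 10061 reads after Septin9 siRNA (0 to 0.0367). In primary myoblast replicate 2, where fibroblast markers were high as well, it was 0.345% in the control (0.197 to 0.560) and 0.324% in the Septin9-deficient sample (0.195 to 0.506). The intervals cover counting error only, and the part that the other cells play in the epsilon reads was not tested.

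The gamma-to-epsilon ratio was compared within each of the 4 pairs, on log2 CPM with a prior count of 2. The log2 ratio was higher after Septin9 siRNA by 0.69 and 0.40 in C2C12 cells and by 0.71 and 0.15 in primary myoblasts, on average by 0.49 (SD 0.26, n = 4 pairs). The two-sided exact sign-flip permutation test gave p = 0.13, the smallest value that 4 pairs allow, so this design could not pass 0.05. In C2C12 replicate 1 Chrne had 0 reads in both samples, so the shift there reflected the change of Chrng (0.67) and the prior count. In C2C12 replicate 2 it rested on 3 Chrne reads in the control and 2 after Septin9 siRNA. In primary myoblasts the ratio moved with the few Chrne reads, since Chrne changed by -0.59 in pair 1 and 0.57 in pair 2 and Chrng by 0.09 and 0.72. With a prior count of 0.5 the mean was 0.76.

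As shares of the summed subunit RPKM, Chrna1 made up 59.5 and 64.9% in control C2C12 cells and 65.8 and 63.3% in control primary myoblasts. Chrnb1 accounted for 35.2 and 25.6% in C2C12 cells and for 10.3 and 13.9% in primary myoblasts. Chrnd took 4.04 and 6.46% (C2C12 cells) against 9.46 and 12.1% (primary myoblasts). Chrng accounted for 1.34 and 3.06% in C2C12 cells and for 14.4 and 10.5% in primary myoblasts, so that the C2C12 receptor transcripts were alpha and beta in the main and those of primary myoblasts held gamma and delta at levels like that of beta. After Septin9 siRNA the Chrng share in C2C12 cells was 1.47 and 2.97%, that in primary myoblasts 14.3 and 14.0%, and only in primary myoblast replicate 2 did it differ from its control by more than 1 percentage point.

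**Figure D1:**
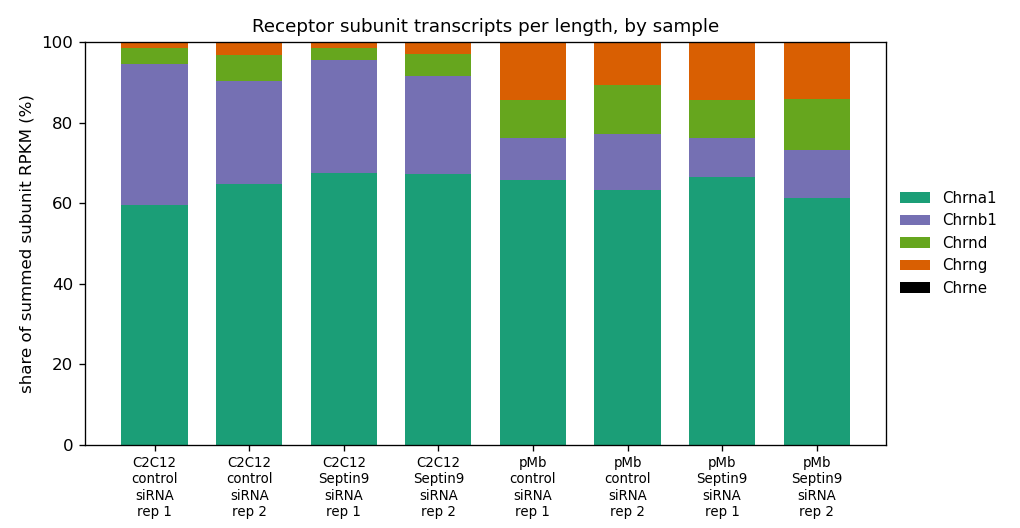
Shares of the summed RPKM of the 5 receptor subunit genes (percent, stacked bars) in each of the 8 samples. Chrng takes 1.34 to 3.06% in C2C12 samples and 10.5 to 14.4% in primary myoblasts (pMb), and Chrne, at most 0.112%, is too thin to see.

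Among the clustering genes, Musk, the agrin-responsive kinase, stood at 10.3 and 14.9 RPKM in control C2C12 cells and at 51.8 and 22.4 RPKM in control primary myoblasts. Dok7, its cytoplasmic activator, stood at 2.81 and 3.12 RPKM against 28.3 and 15.4 RPKM. Neither gene overlapped between the cell types. Rapsn, the receptor anchor, reached 25.7 and 43.2 RPKM in C2C12 cells and 71.9 and 38.7 RPKM in primary myoblasts, and Lrp4, the agrin receptor, 8.71 and 15.97 RPKM against 22.05 and 9.44 RPKM, with overlapping ranges for both genes. A second Rapsn entry of the annotation held 98.3 to 98.9% of the reads of the first, and a second Chrne entry held the same reads as the first, so these entries are not independent.

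Ordered by mean RPKM, control C2C12 cells read Chrna1, Rapsn, Chrnb1, Musk, Lrp4, Chrnd, Dok7, Chrng and Chrne. Rapsn and Chrnb1, Musk and Lrp4, and Dok7 and Chrng changed places between the replicates, so the order within these pairs was not larger than the spread, whereas the ranges of Lrp4 and Chrnd overlapped but Lrp4 was above Chrnd in both replicates. In control primary myoblasts the order was Chrna1, Chrng, Chrnb1, Chrnd, Rapsn, Musk, Dok7, Lrp4 and Chrne, and the ranges of all neighbours from Chrng to Lrp4 overlapped. Chrng and Chrnb1, and Chrnd and Rapsn, changed places between the replicates, while the order from Rapsn over Musk and Dok7 to Lrp4, and of Chrnb1 above Chrnd, held in both. Chrna1 lay above the rest and Chrne below the rest in both orders.

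Of the 8 genes with enough reads to be tested between the controls, 5 were higher in primary myoblasts at an adjusted p under 0.05 in edgeR's quasi-likelihood test, where 34.5% of all genes were called and 18.3% were called higher. Chrng was 24.7-fold higher (log2 fold change 4.62, SE 0.85, edgeR adjusted p = 0.0179), Chrnd 8.63-fold (3.11, SE 0.54, edgeR adjusted p = 0.0157) and Dok7 7.40-fold (2.89, SE 0.34, edgeR adjusted p = 0.00749). Chrna1 was 4.78-fold higher (2.26, SE 0.45, edgeR adjusted p = 0.0215) and Chrnb1 1.85-fold (0.89, SE 0.21, edgeR adjusted p = 0.0327). Musk missed the threshold at 1.57 (95% interval 0.40 to 2.73, edgeR adjusted p = 0.0521), as did Rapsn at 0.69 (-0.33 to 1.71, edgeR adjusted p = 0.228) and Lrp4 at 0.36 (-0.92 to 1.64, edgeR adjusted p = 0.597). The samples of the cell types did not overlap in 6 of the 8 genes tested, against 75.1% of all genes tested. With either C2C12 control left out, 1 gene (Chrnd) remained called. The log2 fold change of Chrng was 5.93 without C2C12 control replicate 2, 3.94 without C2C12 control replicate 1 and 3.84 without primary myoblast control replicate 1, and that of Chrnd was 4.02 without C2C12 control replicate 2.

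**Figure D2:**
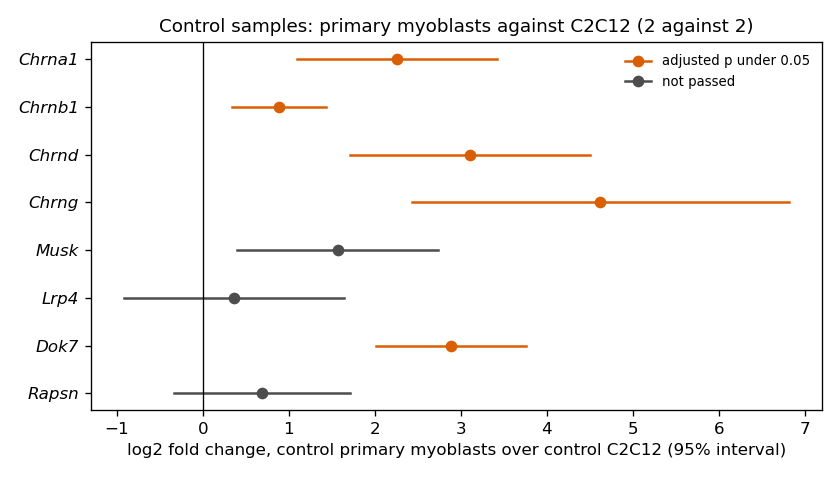
Log2 fold change of control primary myoblasts over control C2C12 cells for the 8 genes tested (horizontal axis), with 95% intervals from edgeR and 2 samples per group. Chrng (4.62), Chrnd (3.11), Dok7 (2.89), Chrna1 (2.26) and Chrnb1 (0.89) pass the adjusted threshold, and the intervals of Lrp4 and Rapsn include 0.

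To ask whether Septin9 depletion reached this program, Septin9-deficient and control samples were compared within each cell type with the replicate number as a block. In C2C12 cells 4 of the 8 genes tested rose at an adjusted p under 0.05 (edgeR's quasi-likelihood test) and none fell, where 6.75% of all genes were called, 2.64% higher and 4.12% lower. None of the 4 reached the 1.5-fold change that the study asked of a differentially expressed gene. The adjusted p and the fold change threshold together were met by 1.57% of all genes. Over the 8 genes the log2 fold changes had a median of 0.34, against -0.00079 over the 15814 genes tested.

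Chrna1 read 224 CPM in the control and 376 CPM in the Septin9-deficient sample of C2C12 replicate 1, and 426 and 520 CPM in replicate 2. Both pairs were higher after Septin9 siRNA, yet the control of replicate 2 lay above the Septin9-deficient sample of replicate 1, so the groups overlapped. Chrna1 rose 1.42-fold (log2 fold change 0.51, SE 0.084, edgeR adjusted p = 0.00081). Chrnb1 went from 76.3 to 90.5 CPM and from 96.9 to 109 CPM, a log2 fold change of 0.20 (95% interval 0.06 to 0.34) that did not pass (edgeR adjusted p = 0.0867).

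Chrng went from 4.78 to 7.79 CPM and from 19.1 to 21.8 CPM, a log2 fold change of 0.37 (95% interval 0.10 to 0.64, edgeR adjusted p = 0.0976). The values of replicate 2 were above those of replicate 1 in both conditions, and the step between conditions was the smaller of these differences. Chrnd read 11.4 and 12.1 CPM in replicate 1 and 31.82 and 30.95 CPM in replicate 2, with a log2 fold change of 0.01 (95% interval -0.19 to 0.20, edgeR adjusted p = 0.984). Chrne was not tested in C2C12 cells.

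Of the clustering genes, 3 of 4 rose in C2C12 cells. Musk went from 38.7 to 64.4 CPM and from 56.4 to 65.8 CPM, and both Septin9-deficient samples lay above both controls. It rose 1.38-fold (0.46, SE 0.089, edgeR adjusted p = 0.00283). Among the 8 genes tested it was the only one without overlap between the groups, which held for 25.4% of all genes tested. Rapsn, at 46.3 and 73.4 CPM in replicate 1 and 77.9 and 96.7 CPM in replicate 2, rose 1.39-fold (0.48, SE 0.078, edgeR adjusted p = 0.000742).

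Lrp4, at 91.5 and 122 CPM in replicate 1 and 168 and 198 CPM in replicate 2, rose 1.25-fold (0.32, SE 0.068, edgeR adjusted p = 0.00642). Both genes were higher in each pair, with groups that overlapped. Dok7 was lower in the first pair, from 12.02 to 10.96 CPM, and higher in the second, from 13.4 to 17.2 CPM, giving 0.13 (95% interval -0.14 to 0.40, edgeR adjusted p = 0.660). No gene passed without the replicate block or without pair 1. Musk and Rapsn, but neither Chrna1 nor Lrp4, passed in DESeq2 with the block and without pair 2.

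**Figure D3:**
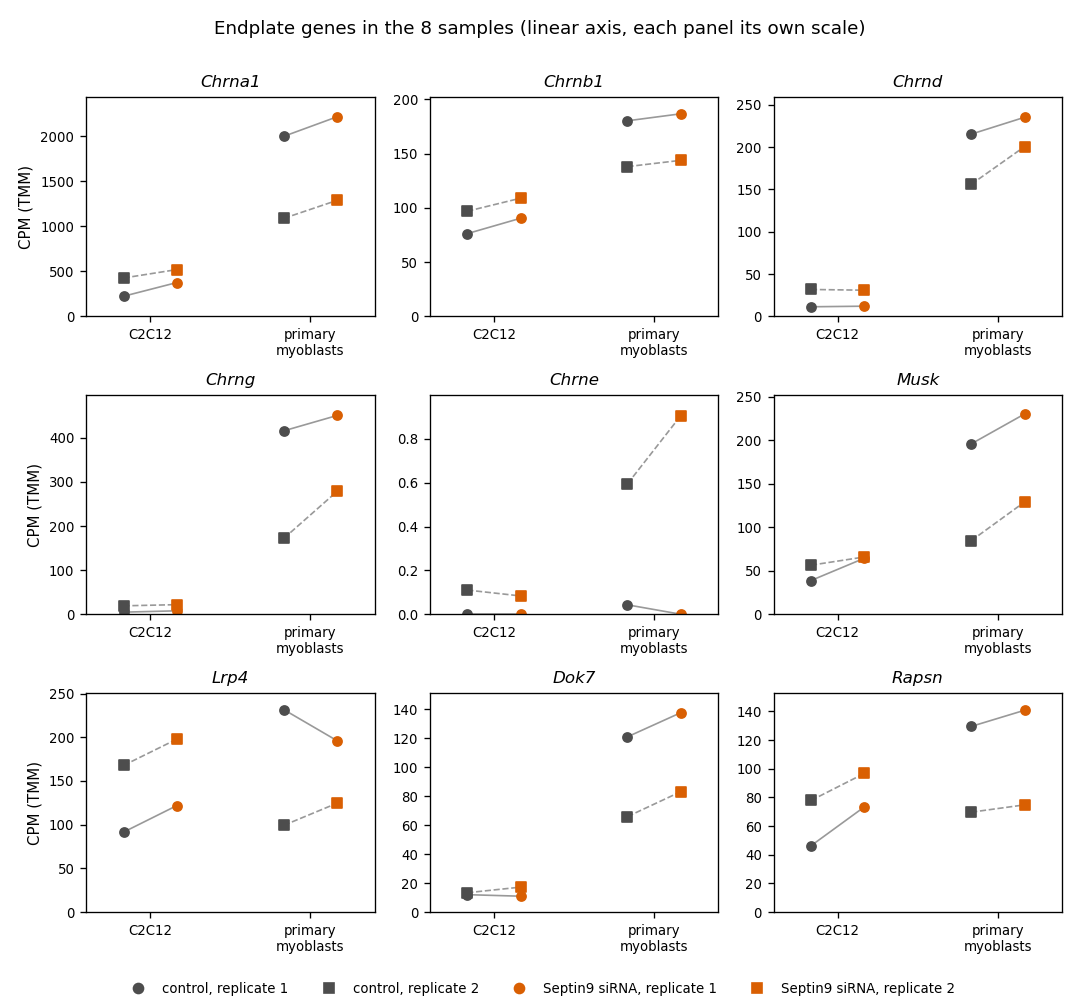
CPM of the 9 genes in each of the 8 samples (points, linear axes that start at 0, a scale for each gene), with lines joining control and Septin9-deficient samples of a replicate. In C2C12 cells both pairs go up for Chrna1, Chrnb1, Chrng, Musk, Lrp4 and Rapsn. On the log2 scale, the primary myoblast control replicates differ from each other by more than the fitted change between siRNA conditions.

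In primary myoblasts none of the 9 genes was called by edgeR's quasi-likelihood test, where 4.99% of all genes were called, 3.95% higher and 1.04% lower, and 3 (Chrng, Musk and Dok7) had an unadjusted p under 0.05. DESeq2 with the block called none as well. All 9 fitted log2 fold changes were positive, as were 51.7% of those of the 17117 genes tested. They ran from 0.04 (Lrp4) to 0.48 (Chrne, with at most 19 reads in a sample). Their median was 0.25, against 0.01 over all genes tested. In none of the 9 were the groups apart, which held for 27.8% of all genes.

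Chrng read 416 and 451 CPM in replicate 1 and 172 and 279 CPM in replicate 2, control before Septin9-deficient. The second pair thus carried most of the log2 fold change of 0.41 (95% interval 0.11 to 0.71, edgeR adjusted p = 0.122). Musk read 196 and 230 CPM and then 84.5 and 129 CPM, with 0.42 (95% interval 0.16 to 0.68, edgeR adjusted p = 0.0553). It was higher in both pairs and came nearest to the threshold. It passed without the filter on low counts, with at least 10 reads in every sample, and on the batch-corrected counts. These settings called 1256, 878 and 931 genes in all, against 854 in the fit used here.

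Chrna1 read 1999 and 2216 CPM and then 1088 and 1288 CPM, a log2 fold change of 0.20 (95% interval -0.12 to 0.51, edgeR adjusted p = 0.567). Chrnd read 215 and 235 CPM and then 156 and 201 CPM (0.25, 95% interval -0.0018 to 0.50, edgeR adjusted p = 0.302). Both subunits were higher in each pair, by less than the distance between the control replicates. The Septin9-deficient replicates differed by -0.18 in log2 CPM of Chrnd, less than its rise of 0.39 in pair 2. Chrnb1, at 180 and 187 CPM and then 138 and 144 CPM, had the narrowest interval around a small value among the subunits (0.06, 95% interval -0.18 to 0.29, edgeR adjusted p = 0.862).

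Chrne, at 0.0430 and 0 CPM in replicate 1 and 0.595 and 0.906 CPM in replicate 2, was tested on the reads of replicate 2 in effect (0.48, 95% interval -0.81 to 1.78, edgeR adjusted p = 0.773). Dok7 read 121 and 138 CPM and then 65.9 and 83.1 CPM (0.26, 95% interval 0.03 to 0.49, edgeR adjusted p = 0.218). Rapsn, at 129 and 141 CPM and then 69.7 and 74.8 CPM, was near its control in both pairs (0.11, 95% interval -0.11 to 0.34, edgeR adjusted p = 0.673). Lrp4 went down in the first pair, from 232 to 196 CPM, and up in the second, from 99.2 to 125 CPM (0.04, 95% interval -0.24 to 0.33, edgeR adjusted p = 0.923). With a pair left out, 1 sample per condition remained and the spread came from the other cell type. Without pair 1 the log2 fold changes ran from 0.067 (Chrnb1) to 0.70 (Chrng). Without pair 2 they ran from -0.24 (Lrp4) to 0.23 (Musk).

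**Figure D4:**
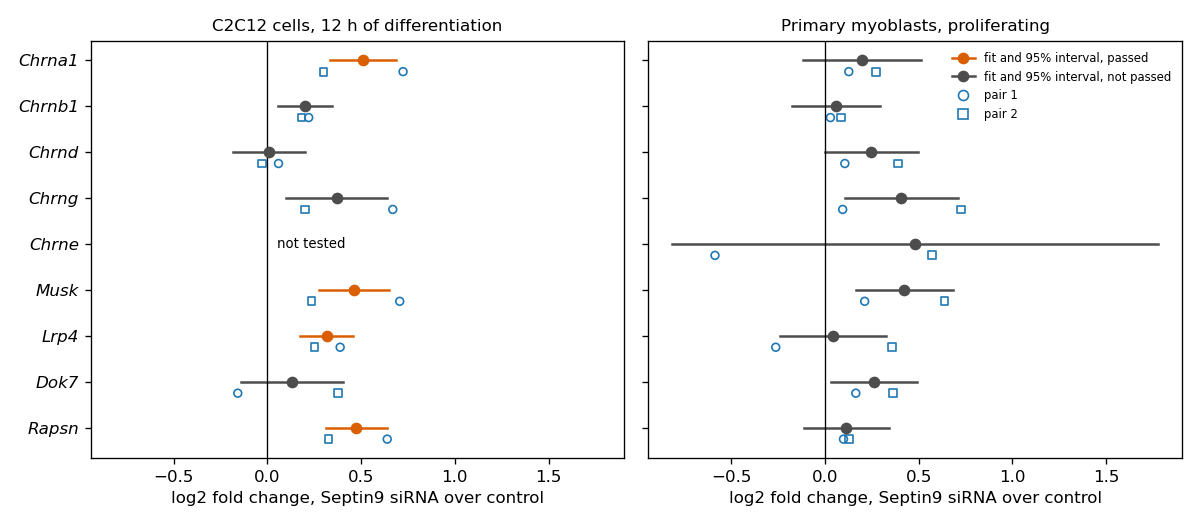
Log2 fold change after Septin9 siRNA for the 9 genes (horizontal axis) in C2C12 cells (left) and primary myoblasts (right), with the edgeR estimate and 95% interval (filled points) and the log2 CPM difference of each replicate pair (open symbols). In C2C12 cells Chrna1, Musk, Lrp4 and Rapsn pass the adjusted threshold, and in primary myoblasts no gene does.

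The difference between the cell types was tested itself, as the interaction of siRNA and cell type over all 8 samples. None of the 9 genes differed, and 0% of the 17918 genes tested passed in edgeR's quasi-likelihood test, where 1469 had an unadjusted p under 0.05 and DESeq2 called 21. The lowest unadjusted p among the 9 genes was that of Rapsn, whose change was smaller in primary myoblasts by 0.37 on the log2 scale (interaction -0.37, SE 0.14, edgeR adjusted p = 0.499). For Chrna1 the difference was -0.32 (95% interval -0.71 to 0.07, edgeR adjusted p = 0.686), and for Musk it was -0.05 (95% interval -0.46 to 0.35, edgeR adjusted p = 0.989). The rise of 4 genes in C2C12 cells was thus not shown to be larger than the change in primary myoblasts.

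The replicate pairs differed in size in the same direction for most of these genes. The genes vary together, so the counts that follow rest on 2 pairs per cell type. In C2C12 cells pair 1 had the larger log2 CPM difference in 7 of 8 genes, Dok7 being the exception, with a median of 0.51 in pair 1 and 0.24 in pair 2. In primary myoblasts pair 2 had the larger difference in 9 of 9 genes, with medians of 0.10 and 0.36. In both cell types the larger differences were in the pair whose control had the lower levels of most of these genes. A low control also raises the difference of its own pair, since the same sample enters both. Septin9 fell further in these pairs as well. In C2C12 cells its log2 CPM difference was -1.504 in pair 1 and -1.22 in pair 2. In primary myoblasts the values were -0.874 and -1.545. Control level and extent of depletion cannot be told apart here.

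The control of C2C12 replicate 2 lay above that of replicate 1 in 8 of 8 genes (median log2 difference 0.76), and that of primary myoblast replicate 2 lay below that of replicate 1 in all but Chrne (median -0.88). Differentiation markers moved the same way between the controls, their median log2 difference being 1.62 for C2C12 cells and -1.88 for primary myoblasts. Myog, which encodes myogenin, read 5.19 CPM in control replicate 1 and 37.5 CPM in control replicate 2 of C2C12 cells, and 1020 and 401 CPM in those of primary myoblasts. Control replicates thus differed by more than the conditions for 7 of 8 genes (C2C12 cells) and for 9 of 9 (primary myoblasts). Between the primary myoblast controls the summed fibroblast markers moved as well, the other way, from 12.97 CPM in replicate 1 to 315 CPM in replicate 2. The part of differentiation stage and of other cells in the change of the endplate genes was not tested.

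The regulators of these genes were examined next, with lists that hold other endplate and differentiation genes. Among 12 tested regulators that act through E-boxes or muscle activity, 5 rose and none fell in C2C12 cells (median log2 fold change 0.18), where 2.64% of all genes rose and 4.12% fell. Myog rose from 5.19 to 15.9 CPM and from 37.5 to 63.7 CPM (1.03, SE 0.12, edgeR adjusted p = 2.28e-05). Myod1, the other E-box activator of this list that rose most (0.54, edgeR adjusted p = 4.57e-05), was followed by Id2, an inhibitor of such factors (0.36, edgeR adjusted p = 0.0201), so the members that rose were activators as well as inhibitors.

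In primary myoblasts, where 3.95% of all genes rose and 1.04% fell, 1 of 13 regulators rose and 2 fell (median 0.01). The same shares over all genes stand behind the counts of the lists that follow. Myog rose from 1020 to 1550 CPM and from 401 to 908 CPM (0.89, SE 0.16, edgeR adjusted p = 0.00266). Myf5, a factor of early myoblasts, fell by 0.78 on the log2 scale (edgeR adjusted p = 0.00679), and Hdac4, a deacetylase known to act in activity-dependent transcription, fell by 0.52 (edgeR adjusted p = 0.0236).

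Differentiation markers rose in larger number, 7 of 10 tested in C2C12 cells (median 0.73) and 11 of 12 in primary myoblasts (median 0.92), and none fell. In C2C12 cells the largest changes were those of Mymx (1.13, edgeR adjusted p = 0.00132) and Mymk (1.02, edgeR adjusted p = 0.000742), which encode fusion proteins, and of Atp2a1, a calcium pump of the sarcoplasmic reticulum (0.95, edgeR adjusted p = 0.000554). In primary myoblasts they were Myh8, the perinatal myosin (1.39, edgeR adjusted p = 0.000632), Ckm, the muscle creatine kinase (1.14, edgeR adjusted p = 0.000852), and Mylpf, a fast myosin light chain (1.09, edgeR adjusted p = 0.00131). These medians were above those of the endplate genes in both cell types, 0.34 and 0.25, a description without a test.

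Among 22 partners of agrin and MuSK signalling, none rose and 3 fell in C2C12 cells (median -0.03), and 3 rose and 1 fell in primary myoblasts (median -0.0028). Crkl, an adaptor recruited by phosphorylated Dok7, fell in both, from 66.6 to 31.1 and from 64.16 to 41.02 CPM in C2C12 cells (-0.87, SE 0.091, edgeR adjusted p = 6.45e-06) and from 82.7 to 44.3 and from 69.9 to 37.4 CPM in primary myoblasts (-0.90, SE 0.11, edgeR adjusted p = 0.000128). The groups did not overlap in either cell type. The other 2 that fell in C2C12 cells were the GTPase gene Rac1 (-0.27, edgeR adjusted p = 0.0177) and the actin crosslinker Actn1 (-0.24, edgeR adjusted p = 0.0474), and those that rose in primary myoblasts included Sorbs2 (0.70, edgeR adjusted p = 0.00462) and Pdzrn3 (0.53, edgeR adjusted p = 0.0293).

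Of the genes for receptor assembly and glycosylation, only Alg2, a mannosyltransferase of N-glycan synthesis, was called. It fell from 31.1 to 15.2 and from 33.3 to 19.8 CPM in C2C12 cells (-0.89, SE 0.093, edgeR adjusted p = 6.63e-06; 8 genes tested) and from 30.76 to 18 and from 36.14 to 15.36 CPM in primary myoblasts (-0.999, SE 0.13, edgeR adjusted p = 0.000242; 10 tested). Both groups were apart in each cell type, and the other genes of this list did not pass.

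A list of neuregulin, its ERBB receptors and the ETS factors downstream of them gave 1 call of 7 tested genes in each cell type. None of Etv4, Etv5, Gabpa and Gabpb1 was called, the last encoding a partner of an ETS factor. Nrg1, the ligand gene, fell by 0.64 on the log2 scale in C2C12 cells (SE 0.076, edgeR adjusted p = 2.28e-05), while Erbb3, a receptor gene, rose in primary myoblasts, from 88.0 to 126 and from 30.9 to 105 CPM (1.13, SE 0.19, edgeR adjusted p = 0.00186). Of the postsynaptic scaffold and channel genes, 1 of 8 rose in C2C12 cells and 3 of 9 in primary myoblasts, and none fell. Sntb1, a syntrophin of the dystrophin complex, rose in both (0.62, edgeR adjusted p = 0.000183, and 1.04, edgeR adjusted p = 0.000656), and the muscle sodium channel gene Scn4a (0.73, edgeR adjusted p = 0.0381) rose in primary myoblasts.

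Genes of the synaptic cleft and basal lamina gave a single call, Dag1 (dystroglycan), which fell by 0.34 in C2C12 cells (edgeR adjusted p = 0.00540; 7 tested), and none of 11 tested in primary myoblasts was called. Of the 11 nicotinic subunit genes of non-muscle receptors, 1 was tested in C2C12 cells and 3 in primary myoblasts and none was called, and their summed level was 0.546 to 3.13 CPM in the 8 samples, far below the 316 to 3088 CPM of the muscle subunits.

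**Figure D5:**
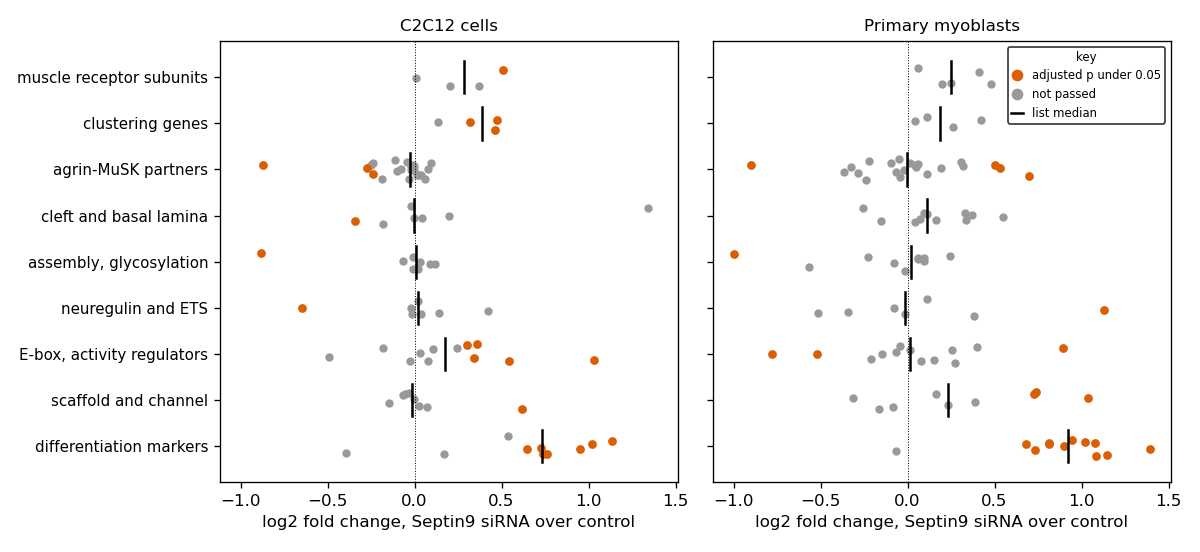
Log2 fold change after Septin9 siRNA (horizontal axis) of each tested gene of 9 lists in C2C12 cells (left) and primary myoblasts (right), with orange points for an adjusted p under 0.05 in edgeR and black bars for list medians. Differentiation markers have the highest medians (0.73 and 0.92), and the lowest points of the assembly and of the agrin-MuSK lists are Alg2 and Crkl.

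Across the 8 samples the 9 genes varied together to unequal degrees, a description that rests mostly on the gap between the cell types. Chrna1 and Chrnb1 had a Pearson r of 0.997 in log2 CPM, and Chrnd and Chrng one of 0.995. Lrp4 was nearest to Rapsn (0.895) and had 0.512 with Chrna1, and Chrne stood apart, with no r above 0.487. Outside the list, Chrng was most like the sarcomere genes Actc1 (0.999), Lmod2 (0.999) and Unc45b (0.998). Chrna1 was most like C1qtnf4, Chrnb1 and Hsf2bp (each 0.997) and Musk like Ckb (0.995), Tspan3 (0.994) and Baiap2l1 (0.992). Chrne, beside its own second entry, was most like Col4a1 (0.985), a collagen gene, and Gm15418 (0.980).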

How the data were processed

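The authors mapped paired-end reads of polyA RNA to GRCm38.p6 with STAR 2.7.2, counted them per gene with featureCounts 2.0.1 and deposited these raw counts, not normalized, for each of the 8 samples. The authors also deposited a normalized signal for each cell type, in which ComBat-Seq had removed the effect of the independent experiments and counts were divided by size factors of DESeq2 1.40.1. Whole counts were recovered from 100% of these values (relative tolerance 0.001) and used in an alternative only. The methods name a Gencode annotation, whereas the gene names are RefSeq symbols. Of the raw counts, 16 broken lines were left out, and 2379 of the 42391 entries are further copies of a listed gene. Reads per sample ranged from 20898611 to 27223414. Intervals on counts cover counting error only.

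In R 4.3.3, edgeR 4.0.16 was run on all genes kept by filterByExpr with TMM scaling and the quasi-likelihood test, Benjamini-Hochberg adjustment of p-values ran over all genes tested, and an adjusted p under 0.05 was a call. Each siRNA comparison used the 4 samples of its cell type with the replicate number as a block. Pairs were read from replicate numbers in the labels, and the methods state independent experiments. Deviations of same-numbered samples from their group means correlated at 0.678 for C2C12 cells and 0.82 for primary myoblasts. The 4 controls were compared without a block, and the interaction was tested over all 8 samples. Because nothing states separate animals, p-values for primary myoblasts measure the spread between these samples.

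CPM use TMM over all 8 samples. RPKM divide them by the exon union of GENCODE release 21 on GRCm38, which may differ from the counted exons. Pair differences and likeness use log2 CPM with a prior count of 2. Promoter sequences and gene positions are from RefSeq (GRCm38.p6). The text names the 9 genes, Septin9, Myog, for each list and cell type up to 3 called genes with the largest fold changes, and for Chrna1, Chrng, Chrne and Musk the 3 genes with the highest correlation over the 8 samples. Some genes that this rule names are not reported here. The genes, lists and tests were chosen with earlier results of these data known.

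In simulated data with 200 changed genes, the fits recovered 99% of them among 15814 genes in C2C12 cells and 98.5% among 17117 in primary myoblasts. They recovered 26.5% among 17103 between the controls and 90.5% among 17918 for the interaction. The changed genes had many reads and a log2 change of 1 up or down, and no replicate effect was simulated. That is larger than any endplate gene's change after Septin9 siRNA, so the recovered shares do not apply to changes of that size. Alternatives were scaling by RLE or by library size alone, all genes with a read or only those with at least 10 in every sample, the block left out or added, DESeq2 1.42.0 on raw or on batch-corrected counts, all 8 samples in 1 fit, a fold change threshold, other prior counts and each replicate left out. Leaving out further copies, a crossed block and the threshold for the controls were added after the data were examined. No column with values was left unassigned. Columns of the authors' own comparisons were not used. Single-nucleus, qPCR and imaging data were not analysed here.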

Additional observations from a re-analysis of the deposited data

How the results depend on the processing

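In C2C12 cells, 4 of the endplate genes were called by edgeR with the replicate block. None was called without the block, where 0 genes were called in all, with the 1.5-fold threshold added, or with all 8 samples in 1 fit, and 2 were called by DESeq2 with the block. With each pair left out, 0 to 2 were called, fitted with the spread of the other cell type. RLE size factors, no filter, at least 10 counts in every sample, the batch-corrected counts and leaving out further copies gave 4 calls, and library size alone gave 6, with 51.1% of all calls higher against 39.0% with TMM. In primary myoblasts, with 0 calls among 854 over all genes, no filter gave 2 (Chrng and Musk) among 1256. At least 10 counts in every sample gave 1 (Musk) among 878, and the batch-corrected counts gave 1 (Musk) among 931. The log2 fold change of Chrng was 0.70 without pair 1 and 0.11 without pair 2, and that of Musk 0.62 and 0.23. RLE size factors lowered the calls over all genes in primary myoblasts from 854 to 295, library size alone to 236 and DESeq2 to 256. Between the controls, with 5 calls, leaving out each control gave 1 to 6, the replicate block gave 4 and DESeq2 gave 6. Replicate numbers of the controls correlated at -0.144 across the cell types, and a crossed block called 7 of the endplate genes and 6645 genes in all, against 4 and 4326 with the block as numbered. The interaction, with 0 calls, gave 0 to 1 with each pair left out (Lrp4, without primary myoblast replicate 2), and over all genes no filter gave 255 calls. The mean gamma-to-epsilon shift of 0.49 was 0.76 with a prior count of 0.5 and 0.42 to 0.60 with each pair left out.

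Directions turned only in values that had not passed. Chrnd in C2C12 cells was -0.015 without a filter, -0.0051 without the block and -0.039 to 0.084 with a pair left out, and Dok7 was -0.13 to 0.37. In primary myoblasts Lrp4 was -0.047 without the block, -0.011 on batch-corrected counts and -0.24 to 0.34 with a pair left out, and Chrne was -0.12 in DESeq2. Between the controls Lrp4 was -0.39 to 0.85 with a control left out and -0.027 without C2C12 replicate 1. For the interaction, Chrng was -0.021 with library size alone and Chrne -0.16 in DESeq2, and with each pair left out Chrng was -0.30 to 0.37, Musk -0.31 to 0.20, Dok7 -0.11 to 0.39 and Lrp4 -0.55 to 0.025. The causes were not tested. With 2 replicates per condition and at most 19 reads of Chrne in a sample, the intervals on its share overlapped between the siRNA conditions of each pair with reads in both.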
